A study of Homo sapiens with 9 samples.

Results

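The 9 genes described here encode the cyclins, kinases and phosphatase of the G1 phase: CCND1, CCND2, CCND3, CCNE1, CCNE2, CDK2, CDK4, CDK6 and CDC25A. They were chosen by name, not by any measured value, and are 9 of 20033 protein-coding genes with a canonical start site in the GENCODE annotation of GRCh38. MDA-MB-231, a human triple-negative breast cancer cell line, was profiled by ATAC-seq, an assay in which the Tn5 transposase cuts accessible DNA. There were 9 libraries, each deposited as its own list of peaks. The shCtrl cells (n = 2) carried a control short hairpin RNA, shEZH2 (n = 2) and shE2F1 (n = 2) a hairpin against EZH2 or E2F1, and shSUZ12 (n = 1) a hairpin against SUZ12. The cells of these 7 libraries were exposed to lentivirus for 24 h and kept in puromycin at 2 μg/ml for 72 h. The other two libraries came from MDA-MB-231 cells given GSK126 (n = 1), an inhibitor of the EZH2 methyltransferase, or its solvent DMSO (n = 1), and neither received a hairpin. All libraries came from the same cell line, and the labels do not say that replicates were separate cultures.

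D-type cyclins bind CDK4 and CDK6, and the active kinases begin the phosphorylation of the retinoblastoma protein, which then releases E2F factors. Free E2F1 is a textbook activator of the genes of the next step, among them the E-type cyclins, their partner CDK2, and CDC25A, the phosphatase that removes inhibitory phosphates from the kinases. EZH2 is the catalytic subunit of Polycomb repressive complex 2, which methylates histone H3 at lysine 27, and SUZ12 is a core subunit of the same complex.

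The peak lists held 58626 to 85812 peaks, with the shortest in shEZH2 replicate 2 and the longest in shE2F1 replicate 2. Reads were not among the files used here, so depth was read from the tags behind each peak, which the deposited fold enrichment and p-value together give. The most frequent local background was 1.41 to 2.18 tags, lowest in shEZH2 replicate 2. Promoter peaks of the basal and mesenchymal markers VIM, CD44, AXL and EGFR were present in all 9 libraries. Their mean percentiles in shCtrl were 29.8, 42.5, 21.0 and 41.7. Of the luminal and epithelial markers, GATA3 had no promoter peak, while EPCAM had one in all 9 libraries at a mean percentile of 76.9 in shCtrl. ESR1, PGR, FOXA1 and CDH1 had promoter peaks in 7 or 8 libraries, at mean percentiles of 9.55 to 27.3 in shCtrl. The hairpins act on RNA, so the promoter peaks of EZH2, E2F1 and SUZ12, present in all 9 libraries, do not check the knockdown.

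The sequences just upstream of 5 members were taken from RefSeq (GRCh38.p14), because the study depleted E2F1 and E2F factors act at promoters of this pathway. The table holds windows of 300 bases, 250 before the start site and 50 after it, for CCND3, CCNE1, CDK4, CDK6 and CDC25A. CCND1, CCND2, CCNE2 and CDK2 have no entry. The E2F motif was searched as TTTCCCGC, TTTCGCGC, TTTGCCGC and TTTGGCGC on both strands, and 3.31% of 35116 such windows held a match. Among the members with an entry, the CDC25A window alone held one, which began 44 bases before the start site and is in capitals below. Each sequence is the 120 bases before the canonical start, read 5′ to 3′ on the gene's strand.
CDC25A, minus strand: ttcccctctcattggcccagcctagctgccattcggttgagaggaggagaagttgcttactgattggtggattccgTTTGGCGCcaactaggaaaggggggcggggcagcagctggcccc
CCNE1, plus strand: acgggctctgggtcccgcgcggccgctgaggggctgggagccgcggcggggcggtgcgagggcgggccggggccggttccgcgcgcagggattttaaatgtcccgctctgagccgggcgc
CDK4, minus strand: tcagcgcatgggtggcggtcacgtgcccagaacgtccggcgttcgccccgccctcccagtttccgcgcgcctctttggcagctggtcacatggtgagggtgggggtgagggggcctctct
CCND3, minus strand: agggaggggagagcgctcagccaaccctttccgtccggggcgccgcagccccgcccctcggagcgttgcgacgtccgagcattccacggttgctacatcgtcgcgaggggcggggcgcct
CDK6, minus strand: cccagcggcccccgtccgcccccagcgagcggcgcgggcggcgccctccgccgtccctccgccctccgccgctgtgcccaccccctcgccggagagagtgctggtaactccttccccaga
The 5 canonical windows had a GC content of 61.0% (CDC25A) to 81.0% (CCNE1), against a median of 58.7% over all windows. The absence of a match in the other windows says only that these letters do not occur there.

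Distal sequences are shown for the 5 loci whose strongest region outside promoters outranked the gene's own promoter in every library with a peak at both. Each is the 200 bases around the highest peak summit (GRCh38, plus strand), with matches to the AP-1 motif TGACTCA or TGAGTCA in capitals. AP-1 is a leucine zipper factor of the FOS and JUN families.
CDK6, 67.9 kb upstream, chr7:92904370-92904569: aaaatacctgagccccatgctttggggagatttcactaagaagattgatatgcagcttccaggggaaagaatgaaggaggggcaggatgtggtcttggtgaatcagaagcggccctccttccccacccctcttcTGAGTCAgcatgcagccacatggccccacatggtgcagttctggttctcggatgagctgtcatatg
CCND1, 53.3 kb upstream, chr11:69587787-69587986: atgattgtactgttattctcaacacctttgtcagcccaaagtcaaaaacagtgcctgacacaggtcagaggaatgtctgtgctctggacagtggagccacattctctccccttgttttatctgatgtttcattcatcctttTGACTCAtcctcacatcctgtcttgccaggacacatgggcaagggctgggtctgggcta
CCND3, 94.9 kb downstream of its start site, chr6:41846826-41847025: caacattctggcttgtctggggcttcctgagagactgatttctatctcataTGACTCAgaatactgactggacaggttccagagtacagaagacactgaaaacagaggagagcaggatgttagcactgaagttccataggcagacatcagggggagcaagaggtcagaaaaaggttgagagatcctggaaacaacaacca
CCNE1, 51.7 kb upstream, chr19:29760199-29760398: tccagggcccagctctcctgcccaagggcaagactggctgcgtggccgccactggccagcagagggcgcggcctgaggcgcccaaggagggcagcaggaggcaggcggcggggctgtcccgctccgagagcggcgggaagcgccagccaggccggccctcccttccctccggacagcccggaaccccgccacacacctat
CCND2, 34.2 kb downstream of its start site, chr12:4307903-4308102: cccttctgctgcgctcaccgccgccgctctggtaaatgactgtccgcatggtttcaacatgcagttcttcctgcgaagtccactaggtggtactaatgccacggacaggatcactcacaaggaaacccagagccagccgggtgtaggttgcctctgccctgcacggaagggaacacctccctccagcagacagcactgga
The CDK6, CCND1 and CCND3 windows held the AP-1 letters and the CCNE1 and CCND2 windows did not. The AP-1 letters occurred in 19 of 51 distal regions of the 9 loci that had a peak in all 9 libraries (37.3%), close to the 38.2% of all 29516 such distal regions. Over all 150 distal regions of the loci the share was 22.0%, against 28.3% of 103892.

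A promoter was taken as the 1 kb on either side of the canonical start site, and its value as the percentile of its strongest peak, by fold enrichment over local background, within that library's own list. A percentile of 100 is the strongest peak of the list. Of the 9 members, 6 had a promoter peak in every library (CCND3, CCNE1, CCNE2, CDK2, CDK4 and CDC25A), and each of the other 3 had one in 7 or 8. Over all genes, 60.0% had a promoter peak in every library and 29.1% in none. The members spread over the whole scale, from CCND1 and CDK6 at the very bottom to CDC25A near the top.

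**Figure D1:**
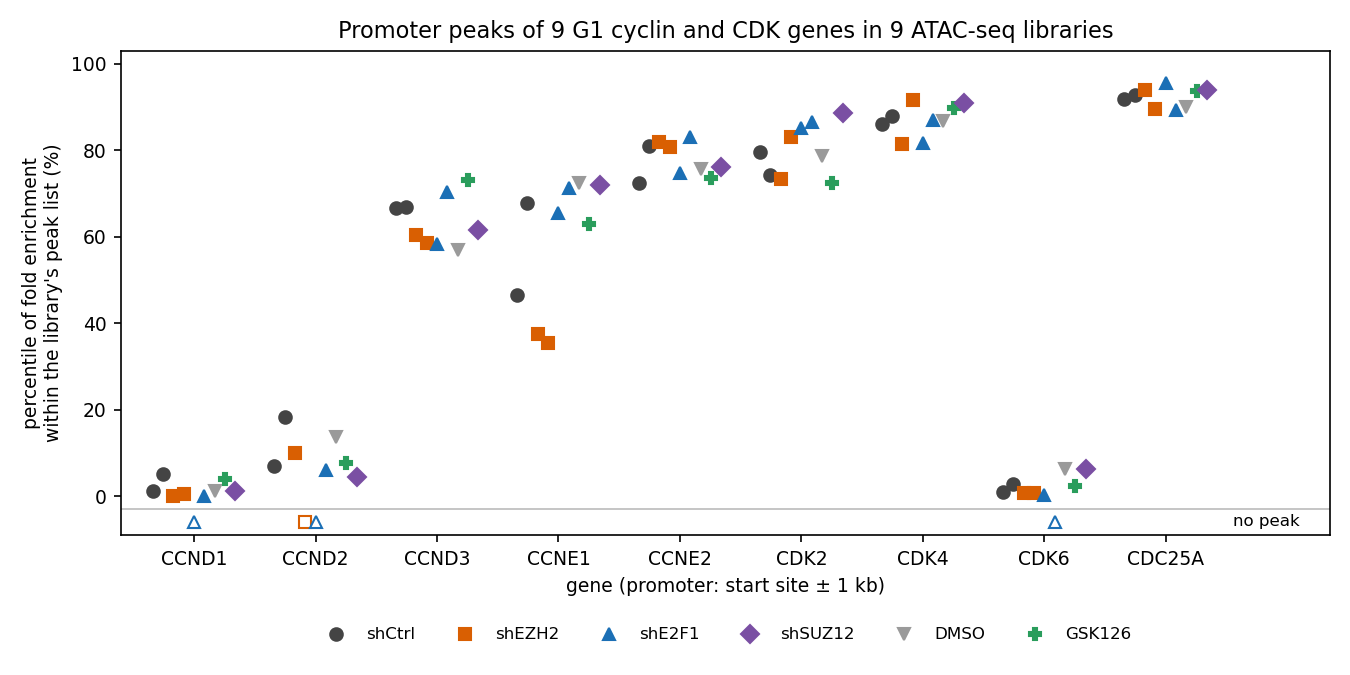
Percentile of the strongest promoter peak within each library's own list (y axis, %) for the 9 genes (x axis), with 1 point per library, coloured by group, and open symbols below the grey line for libraries without a promoter peak. CDC25A sits between 89.2 and 95.5 and CDK4 between 81.5 and 91.5, while CCND1 and CDK6 go no higher than 6.36 wherever they have a peak.

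The 3 D-type cyclins differed widely at the promoter. CCND1 (ENSG00000110092.4, chr11:69641156-69654474, plus strand) encodes cyclin D1, a frequently amplified oncogene in breast cancer. Its promoter peak stood at percentiles 1.14 and 5.15 in shCtrl, 0.0658 and 0.515 in shEZH2, 0.110 in shE2F1 replicate 2, 1.25 in DMSO, 3.92 in GSK126 and 1.13 in shSUZ12. No CCND1 promoter peak was listed in shE2F1 replicate 1. Every CCND1 value was therefore at the floor of its list, and the values in the shEZH2 libraries lay below those in both shCtrl libraries.

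CCND2 (ENSG00000118971.9, chr12:4273762-4305353, plus strand) encodes cyclin D2. Its promoter peak stood at percentiles 6.94 and 18.3 in shCtrl, 9.84 in shEZH2 replicate 1, 5.97 in shE2F1 replicate 2, 13.6 in DMSO, 7.58 in GSK126 and 4.37 in shSUZ12. The libraries without a CCND2 promoter peak were shEZH2 replicate 2 and shE2F1 replicate 1, which also had the lowest background of the knockdown libraries (1.41 and 1.50 tags), and the part of depth in this absence was not tested. The CCND2 start site is shared with a second annotated protein-coding gene, ENSG00000285901, so the peak cannot be assigned to CCND2 alone.

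CCND3 (ENSG00000112576.13, chr6:41934952-41941808, minus strand) encodes cyclin D3 and had the strongest D-type promoter. Its percentiles were 66.6 and 66.8 in shCtrl, 60.4 and 58.6 in shEZH2, 58.2 and 70.3 in shE2F1, 56.9 in DMSO, 73.0 in GSK126 and 61.5 in shSUZ12. The 2 shCtrl values were almost equal, with a mean of 66.7 ± 0.0790 (SD, n = 2), whereas the shE2F1 values spread over 64.2 ± 8.54 (SD, n = 2). The CCND3 peak spanned the start site in every library.

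The E-type cyclins had promoter peaks in all 9 libraries. CCNE1 (ENSG00000105173.14, chr19:29811991-29824312, plus strand), which encodes cyclin E1, had the widest range of percentiles among the members. Its percentiles were 46.5 and 67.7 in shCtrl, 37.5 and 35.4 in shEZH2, 65.4 and 71.1 in shE2F1, 72.5 in DMSO, 62.9 in GSK126 and 71.9 in shSUZ12. Both shEZH2 libraries were below the other libraries, but the shCtrl libraries alone were 21.2 points apart.

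CCNE2 (ENSG00000175305.18, chr8:94880224-94895201, minus strand), which encodes cyclin E2, held a narrower range of percentiles, from 72.4 to 83.0 with a median of 76.1. Its summits fell at 2 places: in 6 libraries they lay 502 to 550 bases upstream of the start site, and in both shE2F1 libraries and shSUZ12 they lay within 46 bases of it. In both shE2F1 libraries the CCNE2 percentiles, 74.7 and 83.0, overlapped the shCtrl values of 72.4 and 80.9.

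Among the kinases, CDK2 (ENSG00000123374.11, chr12:55966830-55972789, plus strand), the partner of the E-type cyclins, had percentiles of 79.7 and 74.2 in shCtrl, 73.4 and 83.0 in shEZH2, 85.0 and 86.5 in shE2F1, 78.6 in DMSO, 72.3 in GSK126 and 88.7 in shSUZ12. The shE2F1 values lay above both shCtrl values and the shEZH2 values did not. The start site of PMEL, a pigment cell gene on the opposite strand, lies 788 bases away, so the window holds both promoters.

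CDK4 (ENSG00000135446.17, chr12:57747727-57752310, minus strand), a partner of the D-type cyclins, had percentiles of 86.1 and 87.8 in shCtrl, 81.5 and 91.5 in shEZH2, 81.7 and 87.0 in shE2F1, 86.7 in DMSO, 89.7 in GSK126 and 91.0 in shSUZ12. The replicated groups overlapped, with means of 87.0 ± 1.22 in shCtrl, 86.5 ± 7.04 in shEZH2 and 84.3 ± 3.71 in shE2F1 (SD, n = 2 each).

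CDK6 (ENSG00000105810.10, chr7:92604921-92836573, minus strand), the other partner of the D-type cyclins and the longest member, had percentiles of 0.963 and 2.69 in shCtrl, 0.686 and 0.650 in shEZH2, 0.343 in shE2F1 replicate 1, 6.22 in DMSO, 2.39 in GSK126 and 6.36 in shSUZ12. No CDK6 promoter peak was listed in shE2F1 replicate 2, the library with the longest list. In shEZH2 replicate 2 the value came from another peak, whose summit lay 980 bases into the gene and which did not span the start site, so that replicate does not measure the same site.

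CDC25A (ENSG00000164045.12, chr3:48157146-48188417, minus strand), the phosphatase whose upstream sequence is shown above with the E2F letters, had the highest promoter percentile of the members in 8 of 9 libraries. Its values were 91.9 and 92.9 in shCtrl, 93.9 and 89.6 in shEZH2, 95.5 and 89.2 in shE2F1, 89.9 in DMSO, 93.8 in GSK126 and 93.9 in shSUZ12. The group means were 92.4 ± 0.709 in shCtrl, 91.8 ± 3.09 in shEZH2 and 92.3 ± 4.41 in shE2F1 (SD, n = 2 each), and all groups overlapped.

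The low percentiles of CCND1 and CDK6 went with a high local background, not with few tags at the summit. Fold enrichment divides the tags at the summit by the tags expected from the surrounding region, and both numbers can be recovered from the deposited columns. At the CCND1 promoter the summit held 109 and 151 tags in shCtrl, 74 and 59 in shEZH2, 68 in shE2F1 replicate 2, 93 in DMSO, 100 in GSK126 and 122 in shSUZ12. Ranked by these tags, the CCND1 peak stood at percentiles 78.9 to 93.3 of its lists. The CCND1 background was 20.0 to 43.4 tags, which is 13.7 to 21.5 times the most frequent value of the library and at or above that of 98.4% to 99.7% of all promoter peaks. At the CDK6 promoter the background was 11.9 to 22.3 tags, or 8.04 to 12.4 times the most frequent value, and the summit held 34 to 83 tags, at tag percentiles of 62.1 to 78.4. CDC25A, with 87 to 226 tags at the summit, had a background of 4.60 to 8.06 times the most frequent value. CCND2 was different again, since it was low by fold enrichment and near the middle of its lists by tags. It had 34 to 51 summit tags at tag percentiles of 47.8 to 62.1.

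**Figure D2:**
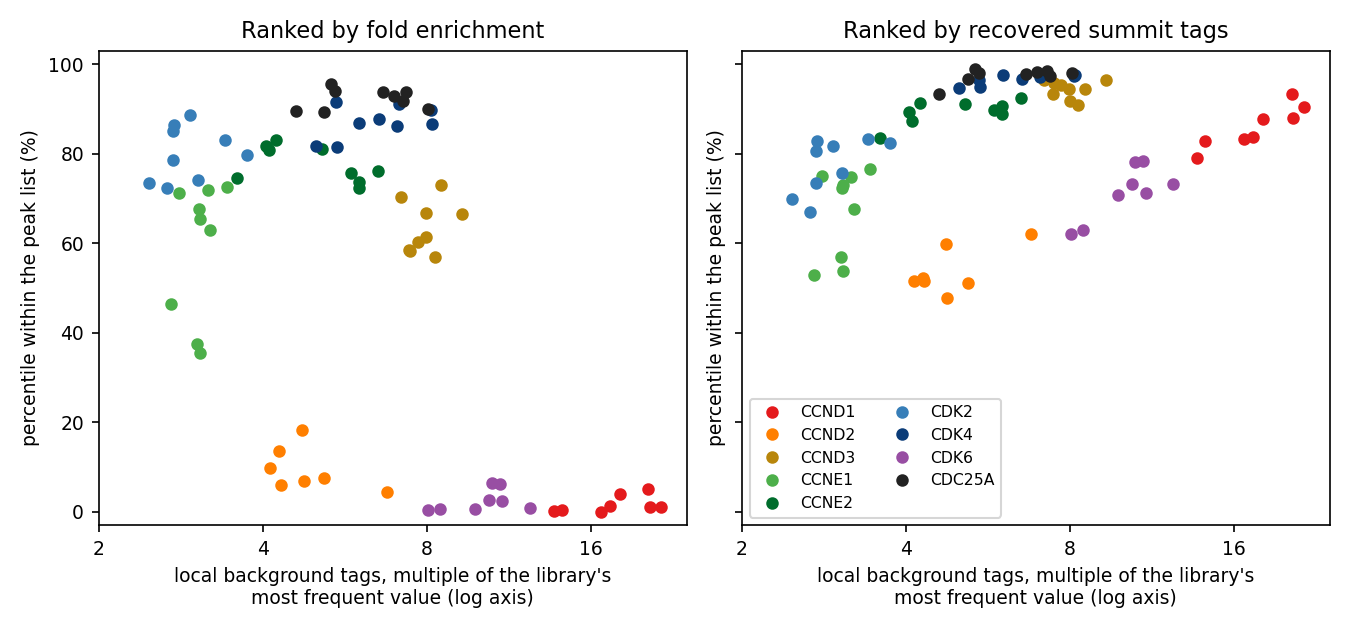
Percentile of each promoter peak (y axis, %) ranked by fold enrichment (left) or by summit tags (right) against the local background as a multiple of the library's most frequent value (x axis, log scale), 1 point per gene and library. CCND1 (red) moves from no more than 5.15 on the left to between 78.9 and 93.3 on the right, and CDK6 (purple) from no more than 6.36 to between 62.1 and 78.4, while CDC25A (black) is high in both panels.

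Peaks near the CCND1 and CDK6 start sites, the promoter peaks among them, had a high background. Over the 44 CCND1 peaks with a summit within 5 kb of the start site, the background was 8.97 to 21.6 times the most frequent value, with a median of 14.4. Over the 136 CCND1 locus peaks more than 20 kb away the median was 2.70. CDK6 showed the same contrast, with a median of 10.5 over 32 near peaks and 2.47 over 209 far peaks. At CDC25A the medians were 6.65 (9 peaks) and 3.26 (89 peaks), and at CCNE1 they were 3.06 (14 peaks) and 2.12 (77 peaks). Near and far medians were 7.99 and 3.07 at CCND3, 6.53 and 1.92 at CDK4, and 4.32 and 1.07 at CCND2. They were 5.13 and 2.99 at CCNE2, and 2.75 and 2.48 at CDK2. A higher background near the start site was therefore not particular to CCND1 and CDK6, whose near medians were the highest. These are peaks of 9 libraries over the same sites, so they are not independent measurements. The background is taken from the region around each summit, so near peaks can share it with the promoter peak. The near values therefore cannot show whether the high background extends beyond that peak. What raised the background around CCND1 and CDK6 was not tested, and peak lists do not show the signal between peaks.

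**Figure D3:**
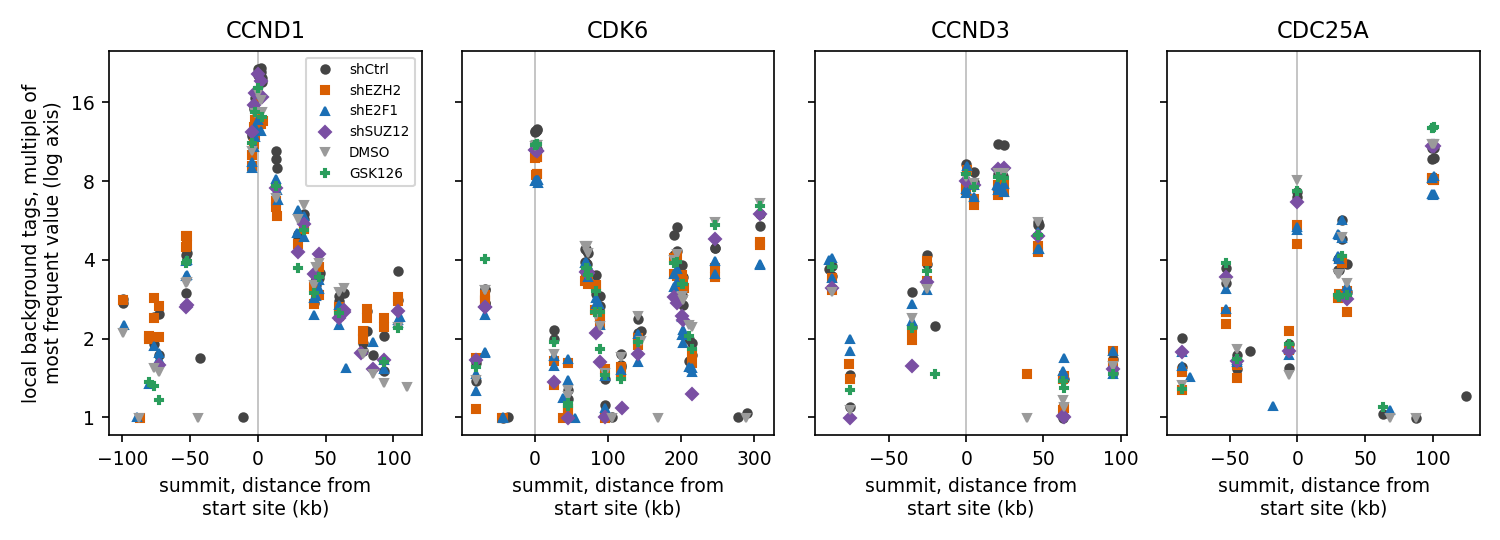
Local background of every peak, as a multiple of the library's most frequent value (y axis, log scale), against the distance of its summit from the start site (x axis, kb, positive along the gene) at 4 loci, 1 point per peak and library. At CCND1 the points rise to 21.6 around the start site and fall towards 1 to 4 at the edges of the locus, and CDK6 has a like but lower rise.

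The comparison of shEZH2 with shCtrl asks how accessibility at these promoters stood when EZH2 was depleted. With 2 libraries against 2 no exact two-sided permutation p below 0.333 is possible, so no p-value is given, and a promoter is called lower or higher where both knockdown libraries lie beyond both shCtrl libraries. Of the 8 members with a promoter peak in all 4 libraries, 4 were lower (CCND1, CCND3, CCNE1 and CDK6) and 0 were higher. The CDK6 call rests on another peak in shEZH2 replicate 2, and with promoters of 500 bp, which leave that peak out, CDK6 could not be compared and 3 of 7 members were lower. Over all 12234 promoters compared, 29.7% were lower and 10.6% were higher, and the median difference was -2.58 points. CCNE1 had the largest difference, -20.7 points, followed by CCND3 with -7.23, CCND1 with -2.86 and CDK6 with -1.16. Without shCtrl replicate 1 the CCNE1 difference was -31.3 points, and without shCtrl replicate 2 it was -10.1. The same omissions gave -4.86 and -0.851 points for CCND1 and -2.02 and -0.295 for CDK6.

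These calls depended on how peaks were ranked. The shEZH2 lists were the shorter ones, and when every list was cut to the 58626 peaks with the smallest p-values, 0 of 7 members were lower and CCNE2 was higher, by 11.0 points. In those equal lists CCND3 stood at 55.3 and 53.7 in shCtrl and 51.2 and 58.6 in shEZH2, and CCNE1 at 28.3 and 55.0 in shCtrl and 23.0 and 35.4 in shEZH2, so both overlapped. Over all promoters the same change turned the split to 14.4% lower and 23.9% higher. Ranked by summit tags, the lower members were CCND1, CCNE2, CDK4, CDK6 and CDC25A, beside 46.3% of all promoters. CCND1 was thus lower on each of the 3 rankings of the full lists, at -34.4 points when ranked by -log10 p, but could not be compared in the equal lists. With promoters of 2 kb the value came from a stronger flank region (chr11:69638929-69639531), which differed by 0.675 points. That setting does not measure the CCND1 promoter peak.

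With shE2F1, 6 members had a promoter peak in all 4 libraries, and CDK2 was higher, by 8.81 points, while 0 were lower. The background for this comparison was 19.2% higher and 17.0% lower over 12516 promoters. CDK2 was also higher in the equal lists, by 13.0 points, and by -log10 p, by 4.73 points. By summit tags its values overlapped, at 82.4 and 75.6 in shCtrl and 80.6 and 82.9 in shE2F1. In the equal lists CCNE1 was also higher, by 17.1 points, as it was by summit tags, and CDK4 was lower, by -2.38 points. CDC25A, whose window held the E2F letters, differed by -0.0202 points, from shE2F1 values on either side of shCtrl. Without shE2F1 replicate 1 the CDC25A difference was -3.14 points, and without replicate 2 it was 3.10. Both knockdown comparisons share the shCtrl libraries and are not independent of each other.

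**Figure D4:**
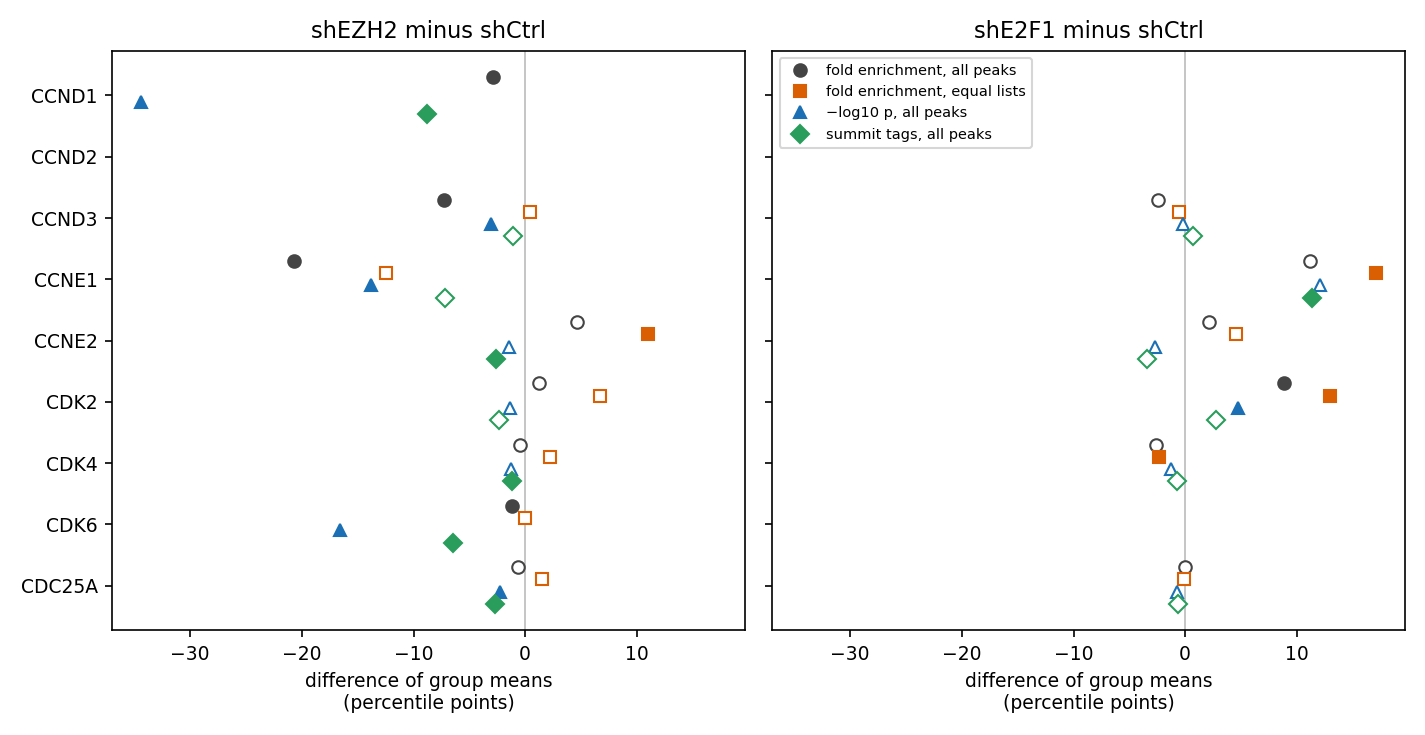
Difference of group mean percentiles (x axis, points) for shEZH2 (left) and shE2F1 (right) against shCtrl for each gene (y axis) under 4 rankings, with filled symbols where both knockdown libraries lie beyond both shCtrl libraries and no symbol where a library lacks the peak. CCND3 is at -7.23 in all peaks and at 0.413 in equal lists with shEZH2, while CDK2 with shE2F1 is above 0 under all 4 rankings.

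The shSUZ12 library had no replicate. CCND1, CCND2 and CCND3 stood below both shCtrl libraries, and CCNE1, CDK2, CDK4, CDK6 and CDC25A above both, with CCNE2 in between. Over all 12868 promoters compared, 19.2% were below both and 52.6% above both. CCND1 lay below the lower shCtrl library by -0.0138 points, and ranked by -log10 p both CCND1 (50.3) and CCND2 (32.3) fell within the shCtrl range. In the equal lists 1 member was below both shCtrl libraries, CCND3, at 51.8 beside 55.3 and 53.7. No share over all promoters is at hand for that count. The GSK126 and DMSO libraries, also without replicates, differed by more than 10 points at CCND3, which was 16.1 points higher with GSK126, and at no other member. Over all 12823 promoters, 6.87% were over 10 points higher with GSK126 and 15.4% over 10 points lower. CCNE1 came next, at -9.62 points with GSK126.

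A further RefSeq start site of CDK6 lies 2.61 kb into the gene. The region around it (chr7:92832976-92834306, exon) had a peak in all 9 libraries, which the canonical promoter did not. Its percentiles were 23.0 and 22.3 in shCtrl, 13.8 and 13.7 in shEZH2, 3.75 and 14.6 in shE2F1, 17.3 in DMSO, 13.0 in GSK126 and 20.4 in shSUZ12. Both shEZH2 and both shE2F1 libraries were below both shCtrl libraries there, by -8.92 and -13.5 points. In the equal lists the shEZH2 difference was 1.04 points and overlapped, and the shE2F1 difference was -6.03 points and did not.

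The wider loci, each the canonical transcript with 100 kb on either side, held 192 regions after merging the peaks of all 9 libraries, and 76 of these (39.6%) had a peak in every library, beside 34.2% of all 118719 regions. Of the 192, 12 lay at member promoters, 30 at promoters of other genes, 37 in the member's gene body and 113 in the flanks. CDK6 had 38 regions, 17 of them in all 9 libraries and 13 of these 17 within its own gene body. CCND1 had 34 regions, 11 of them in all 9 libraries, although its promoter was not among them. Per 100 kb, CDK2 had 5.34 regions found in all 9 libraries, CCND1 had 5.16, CCND3 had 4.83 and CDK6 had 3.94, against a median of 2.55 over all genes. CCND2 had 0.864 and CCNE2 had 1.40.

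The strongest region outside promoters, chosen by the highest mean percentile in shCtrl, was far from the gene in most loci. At CDK6 it lay 67.9 kb upstream (chr7:92904148-92905181), outside any protein-coding canonical transcript, at percentiles of 99.6 to 99.98 in all 9 libraries. At CCND1 it lay 53.3 kb upstream (chr11:69587505-69588745), also outside such transcripts, at 94.1 and 88.7 in shCtrl, 97.3 and 99.4 in shEZH2, 99.3 and 94.9 in shE2F1, 96.0 in DMSO, 94.1 in GSK126 and 86.6 in shSUZ12. Both knockdown pairs were above both shCtrl libraries at that CCND1 region, and this also held in the equal lists (9.81 and 7.67 points with shEZH2 and shE2F1), by -log10 p and by summit tags. At CCND3 the strongest lay 94.9 kb downstream in an intron of USP49 (chr6:41846545-41847229), at 94.9 to 99.7.

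At CDC25A the strongest distal region lay 44.4 kb upstream (chr3:48232678-48233101) and at CCNE1 51.7 kb upstream (chr19:29759894-29760496). Their percentiles were 71.8 to 98.2 and 89.4 to 93.9. At CDK2 it lay 26.4 kb upstream overlapping a coding exon of DGKA (chr12:55940024-55940599). This CDK2 region stood at 84.4 and 86.2 in shCtrl, 56.6 and 27.8 in shEZH2, 62.2 and 70.3 in shE2F1, 77.5 in DMSO, 76.1 in GSK126 and 77.2 in shSUZ12, so the shEZH2 and shE2F1 libraries were the 4 lowest. The CDK2 region was also lower with both hairpins in the equal lists (-42.8 and -23.7 points), by -log10 p and by summit tags. Its choice as the highest in shCtrl by itself favours lower values in the other libraries. At CDK4 the strongest distal region lay 26.1 kb downstream, overlapping an exon of AGAP2 (chr12:57725824-57727107), at 59.1 to 85.7. The region at CCND2 was 34.2 kb downstream of its start (chr12:4307676-4308368), at 7.76 to 67.3. CCNE2 had 0 distal regions in all 9 libraries, and the only one with a peak in both shCtrl libraries (chr8:94813493-94813755) was in 3 libraries.

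**Figure D5:**
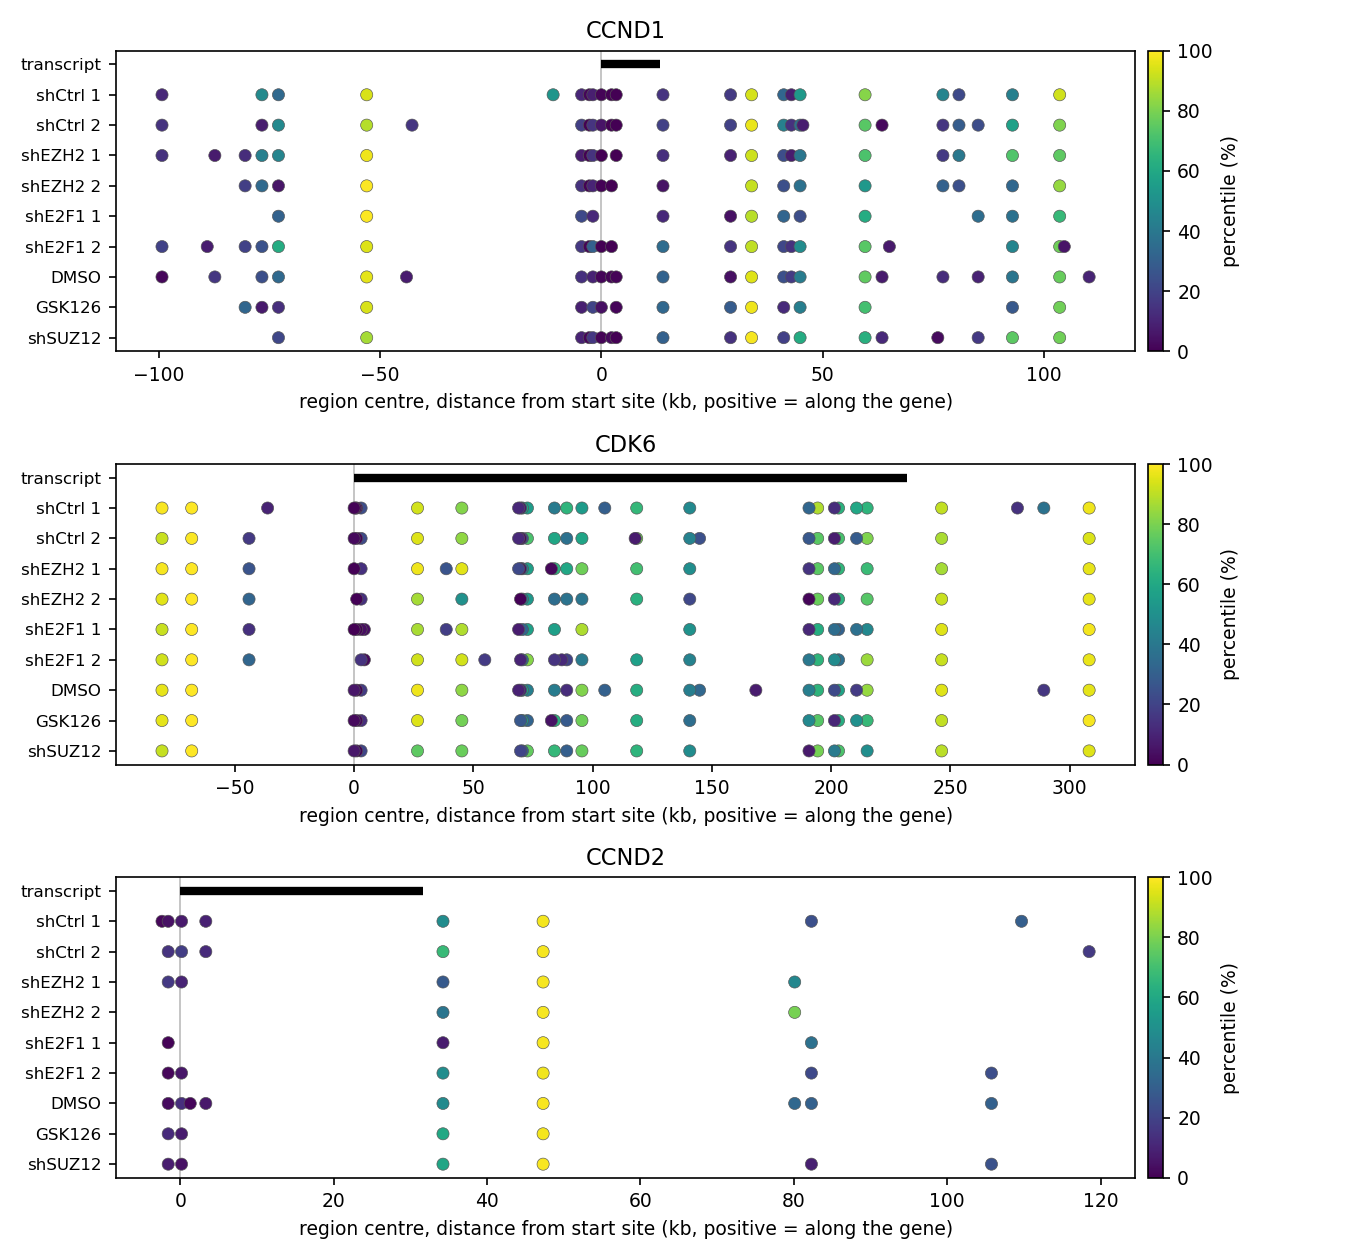
Regions at the CCND1, CDK6 and CCND2 loci by distance of the region's centre from the start site (x axis, kb) and library (y axis), 1 point where the library has a peak, coloured by its percentile (%), with the transcript as a black bar. CDK6 has points along its whole transcript and bright points 68.1 kb upstream in all 9 libraries, CCND1 has dark points at the start site and a bright column 53.0 kb upstream, and CCND2 has few points besides a bright column at the TIGAR promoter.

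Distal regions with a peak in all 4 libraries could be compared by rank. With shEZH2, 16 of 61 such regions of the 9 loci were lower and 3 were higher, beside 31.9% and 12.0% of all 35387 distal regions. The 3 higher were the CCND1 region 53.3 kb upstream, by 6.90 points, a CDK2 flank region (chr12:56071493-56072510, 8.15 points) and a CDC25A flank region (chr3:48087370-48087893, 11.2 points). With shE2F1, 13 of 65 were lower and 12 were higher, beside 24.1% and 16.2% of all 39224. The lower ones with shEZH2 included the strongest distal regions of CDK2, by -43.1 points, CCND2, by -24.4, CDC25A, by -13.0, and CCNE1, by -1.93. These regions were chosen for their high shCtrl percentiles, which by itself favours lower knockdown values, so the drops cannot be read as knockdown effects. In the equal lists the CCNE1 region overlapped (-0.0226 points) and the CCND2 region could not be compared, and by -log10 p the CDC25A region overlapped.

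Few regions appeared or disappeared. With shEZH2, 3 of 171 regions were gained, that is present in both knockdown and neither shCtrl library, and 14 were lost (8.19%), beside 0.888% gained and 7.17% lost over all regions. With shE2F1, 3 of 178 were gained and 8 were lost (4.49%), beside 2.88% and 3.77%. In the equal lists the counts were 2 gained and 2 lost with shEZH2, beside 2.67% and 3.87% of all regions. With shE2F1 they were 2 gained and 4 lost, beside 3.61% and 3.70%. The CCND3 and CDC25A loci had no gained or lost region in either comparison.

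The regions gained with shEZH2 lay in the CCND1 flank (chr11:69560467-69560841), the CCND2 flank (chr12:4353729-4354020) and an intron of CCNE1 (chr19:29819948-29820333). The CCND2 region was the strongest of these, at percentiles of 46.2 and 79.5 in shEZH2 and 33.4 in DMSO, without a peak in the other 6 libraries. The CCNE1 intron was found in no library but the 2 shEZH2 ones, at 41.6 and 38.9. Gained with shE2F1 were a CDK2 flank region (chr12:56054888-56055625), a CCNE1 flank region (chr19:29841240-29841492) and a CDK6 intron (chr7:92832173-92832379), at percentiles of 2.06 to 24.5 in the shE2F1 libraries.

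Regions lost with shEZH2 were most frequent at CDK2 and CDK4, with 4 each, followed by CCNE1 with 3 and CCND2, CCNE2 and CDK6 with 1 each. Those at CDK2 were at the DGKA promoter (chr12:55931914-55932422) and in flanks (chr12:55880796-55881419, chr12:55933218-55933515 and chr12:56029738-56030036). At CDK4 they were at the CYP27B1 promoter (chr12:57766035-57767330) and in flanks (chr12:57810528-57810827, chr12:57831452-57832032 and chr12:57836858-57837302). The CCNE1 ones were all in flanks (chr19:29771698-29772268, chr19:29858062-29858373 and chr19:29879017-29879333), and the CDK6 one was an intron (chr7:92625666-92626091). The mean shCtrl percentiles of the 14 lost regions ran from 3.89 to 46.4.

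Lost in both comparisons, which share the shCtrl libraries, were a CCND2 intron (chr12:4276985-4277218), a CCNE2 flank region (chr8:94813493-94813755) and the CDK4 flank region chr12:57831452-57832032. Lost with shE2F1 besides these were 3 regions of CCND1, an intron at a mean shCtrl percentile of 0.122 (chr11:69644173-69644836) and flanks (chr11:69718166-69718501 and chr11:69721795-69722124). The remaining losses were at CDK2, at the SUOX promoter (chr12:55996163-55996600) and in a flank (chr12:56072547-56073076).

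Of 24 other genes of the G1 pathway, 21 had a promoter peak in all 9 libraries. Among the 7 CDK inhibitors, CDKN2A and CDKN2B, neighbours on chromosome 9 whose products block CDK4 and CDK6, had no promoter peak in any library. No peak was listed in any library from 100 kb before these genes to 100 kb after them (chr9:21867752-22109305), and the nearest peaks lay 1212 to 1235 kb before and 2904 to 3668 kb after. The CDKN2A locus is known to be deleted in MDA-MB-231, and copy number was not measured here. E2F2, an activating E2F, had a promoter peak in 8 libraries, without one in shE2F1 replicate 1.

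With shEZH2, 4 of the 22 pathway genes compared were lower and 5 were higher, beside 29.7% and 10.6% of all promoters. These calls are given for the full lists only, and in the equal lists the shares over all promoters were 14.4% and 23.9%. The lower ones were the inhibitor CDKN1C, by -32.1 points, the repressor E2F4, by -25.4, the pocket protein RBL1, by -17.1, and the E2F partner TFDP1, by -13.1. The higher ones were E2F5, by 26.4 points, the phosphatase CDC25B, by 11.8, the inhibitor CDKN1A, by 11.5, E2F3, by 6.04, and the ubiquitin ligase subunit SKP2, by 1.51. By list, lower and higher counts were 1 and 1 of 5 inhibitors, 1 and 0 of 3 pocket proteins, 2 and 2 of 7 E2F and DP factors, and 0 and 2 of 7 genes of kinase activation and turnover. The median difference over the 22 was -0.453 points, beside -0.878 for the members and -2.58 for all promoters.

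With shE2F1, 2 of 21 pathway genes were lower, the inhibitor CDKN2C by -24.3 points and RBL1 by -14.5. The background over all promoters was 17.0% lower and 19.2% higher in the full lists used here, and 15.4% and 22.3% in the equal lists. The 7 higher ones were CDC25B, by 28.0 points, E2F5, by 18.9, CKS1B, a subunit that binds the kinases, by 11.8, TFDP1, by 10.0, CDKN1A, by 7.84, RB1, by 6.05, and SKP2, by 2.69. The median difference was 0.518 points, beside 1.07 for the members and -0.0714 for all promoters.

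For the members with a promoter peak in all 9 libraries, the gene with the most similar percentiles was named by the smallest mean absolute difference over the 9 libraries. This was KDM4A for CDC25A (1.30 points), LAPTM4A for CDK4 (1.61), SP4 for CCNE2 (1.84), SLC17A5 for CDK2 (2.59), CNNM4 for CCNE1 (2.59) and PTOV1 for CCND3 (3.89). Like CCNE1, CNNM4 was lowest in the shEZH2 libraries, at 43.1 and 38.1. This follows from its choice by likeness to CCNE1 over these same libraries and is no separate evidence.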

How the data were processed

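ATAC-seq was performed on MDA-MB-231 cells in 9 libraries of 6 groups. The authors aligned reads with Bowtie2 to the human genome (GRCh38 in the submitters' notes), reporting up to 4 alignments per read, and shifted them by +4 and -5 bases for Tn5 before calling peaks per library. The peak caller is not given in the sources used here. The deposited peak lists give a score, a fold enrichment (ratio over local background), and -log10 p and -log10 q values for each peak, all made by the authors. Up to 4 alignments per read can place signal at repeated sequences.

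Peaks were ranked by fold enrichment within each list and joined to GENCODE 44 canonical transcripts with Python 3.11.15, pandas 2.3.3, numpy 2.4.6 and scipy 1.17.1. Regions were merged at an overlap of 1 bp. Summit tags n and background tags b were recovered from fold enrichment, taken as n plus 1 over b plus 1, and the Poisson -log10 p, and both columns were met for 100% of peaks within 0.00118. Rankings of percentiles cover no sequencing error, and total reads per library are unknown. Calls were non-overlap of both libraries of a pair, or, without replicates, a place outside the shCtrl range (shSUZ12) or a difference of 10 points (GSK126). Scripts were tested on simulated data.

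The members, lists and tests were chosen with earlier results of these data known. All 9 members are named. Other pathway genes are named where called or without a peak in every library, the gene of most similar pattern is named for each member with a peak in all 9 libraries, and distal regions are named where gained, lost, or strongest in shCtrl outside promoters. The AP-1 search and the rank comparison of distal regions were added after the data were seen. Alternatives were other rankings, equal list lengths, a -log10 q of at least 5, promoters of 500 bp or 2 kb, any start site, the nearest summit, summit windows of 250 bp and each replicate left out.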

Additional observations from a re-analysis of the deposited data

How the results depend on the processing

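Most member differences shifted by less than the SD within groups under the alternatives (175, beside 16 that moved further and 3 called ones that reversed). Small differences could still change sign within that limit, such as CDK4 with shEZH2, from -0.439 to 2.19 points in the equal lists. The counts of members and regions called were small and moved easily. With every list cut to equal length, 0 members were lower and 1 higher with shEZH2, and 1 lower and 2 higher with shE2F1. Over all promoters the shares were 14.4% and 23.9% with shEZH2, and 15.4% and 22.3% with shE2F1. Under that setting the shEZH2 difference of CCND3 turned to 0.413 points and that of CDK6 to 0.0145. With shSUZ12, 1 member (CCND3) was then below both shCtrl libraries, without a share over all promoters to set beside it. The regions lost were 2 with shEZH2 and 4 with shE2F1, beside 3.87% and 3.70% of all regions. Distal regions of the 9 loci were 8 lower and 7 higher with shEZH2, beside 18.9% and 22.3% of all distal regions. With promoters of 2 kb on either side, the CCND1 value with shEZH2 was 0.675 points, taken from the flank region chr11:69638929-69639531 and not from the promoter peak. At that width 1 member was lower with shE2F1, beside 17.3% of all promoters. This was CCND2, whose value in shE2F1 replicate 1 came from a flank region (chr12:4271826-4272574). Counting any protein-coding start site gave 2 members lower with shE2F1, beside 17.3% of all promoters. These were CCND2, by the same difference, and CDK6 through the region chr7:92832976-92834306, so neither call rests on the canonical promoter peak alone. Taking the peak with the summit nearest to the start site gave 1 higher with shEZH2 and 2 higher with shE2F1. The shares over all promoters were 10.6% and 19.2%. Between GSK126 and DMSO, ranking by -log10 p gave 1 member lower, a threshold of 5 points gave 3 lower, and ranking by summit tags, chosen after the data were seen, gave 0 higher. No share over all promoters is at hand for these GSK126 settings, so their counts cannot be read as a result about the members. Placing absent promoters at percentile 0, also chosen after the data were seen, gave 3 lower with shE2F1, beside 17.3% of all promoters. Beyond the settings that took another peak, the cause of these changes was not tested.

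Leaving out each replicate of the compared groups in turn gave 4 to 6 members lower and 0 to 2 higher with shEZH2. Over all promoters 42.0% to 53.8% were then lower and 18.0% to 26.5% higher. With shE2F1 the omissions gave 0 to 3 lower and 1 to 4 higher, beside 27.3% to 44.9% and 29.6% to 43.8%. Regions gained and lost were 4 to 11 and 20 to 32 with shEZH2, beside 1.87% to 6.84% and 9.46% to 18.6% of all regions. With shE2F1 they were 5 to 17 and 12 to 25, beside 4.67% to 13.0% and 5.28% to 12.8%. Distal regions lower and higher in rank, a count added after the data were seen, were 28 to 39 and 7 to 21 with shEZH2. The shares over all distal regions were 43.9% to 56.1% and 20.9% to 29.1%. With shE2F1 they were 18 to 38 and 18 to 33, beside 34.9% to 49.5% and 26.8% to 36.7%. Fewer libraries make non-overlap easier to reach.

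Replicates with the same number showed little shared deviation (Pearson r across promoters, which are not independent, of 0.0520 for shEZH2 and 0.0576 for shE2F1). This cannot tell whether libraries with the same number were prepared together, which the labels do not say. With the replicate block, 4 members were lower and 0 higher with shEZH2, beside 39.9% and 16.1% of all promoters. With shE2F1, 1 was lower and 3 higher, beside 25.7% and 27.6%. Distal regions lower and higher were 20 and 4 with shEZH2, beside 41.4% and 17.6% of all distal regions. With shE2F1 they were 19 and 18, beside 33.2% and 23.6%. Peak lists hold no reads, so a promoter without a listed peak lies under the caller's threshold and is not shown to be closed.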
